A study of Homo sapiens with 12 samples.

Results

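DNMT3B, DNMT3A, DNMT1, TET1 and TET2 write DNA methylation or start its removal in human cells. Open chromatin around these 5 genes was described in H7, a line of human embryonic stem cells grown in mTeSR Plus medium, and in ARPE-19, a retinal pigment epithelium line grown in DMEM with fetal bovine serum. Chromatin accessibility had been measured by ATAC-seq, in which a transposase cuts accessible DNA and tags it for sequencing, in 3 libraries of H7 and 3 of ARPE-19, each from 500000 cells, with no treatment named in the labels. Each library has a list of peaks, which are stretches where reads pile up over the local background. A peak was taken when it lay within the hg19 span of 1 of the 5 genes or within 50 kb on either side. This gave 70 of the 170706 peaks of the 6 lists, or 33 of the 84664 regions obtained by merging peaks that overlap by at least 1 base. The choice was made by position and not by signal, though with earlier results of these data known. The labels speak of triplicates but not of separate cultures, and spreads and p-values here are therefore between libraries, which may be technical. In such bulk material, a site open in fewer cells and a site less open in each cell cannot be told apart. Markers of the lines were not examined, because gene positions on hg19 other than those of the 5 genes were not used.

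DNMT3A and DNMT3B are the de novo methyltransferases, which place methyl groups on cytosines of unmethylated CpG sites. DNMT1 is the maintenance methyltransferase, which copies the pattern to the new strand after replication. TET1 and TET2 are dioxygenases that oxidise 5-methylcytosine to 5-hydroxymethylcytosine and further products, a step towards removal of the mark. Embryonic stem cells are known for high expression of DNMT3B and TET1. TET2 and DNMT1 are also used in many somatic cells. TET1 reads CpG-rich DNA through its own CXXC domain. TET2 has lost this domain, which in vertebrates is encoded by the neighbouring gene CXXC4.

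The RefSeq start windows of these genes differ in CpG content, CpG being the site the enzymes act on. Windows are shown for DNMT3B, DNMT1 and TET2, which had a peak within 1 kb of the 5′ edge of the hg19 span. TET1 had none there, and its outermost and last internal starts are shown. For TET2 the second start is shown. The sequences are RefSeq windows on GRCh38.p14, from 250 bases before to 50 bases after a start, 5′ to 3′ on the coding strand, with CpG sites in capitals. The peaks are on hg19, so a window cannot be set base for base on a peak. Whether a printed start, such as that of DNMT3B, lies at the hg19 5′ edge or near a called peak was not tested. The CpG count of the DNMT3B window therefore cannot be taken as that of its 5′ edge or main promoter. All 5 genes were matched in the table of 35116 windows.
DNMT3B, chr20:32779602-32779901, plus strand: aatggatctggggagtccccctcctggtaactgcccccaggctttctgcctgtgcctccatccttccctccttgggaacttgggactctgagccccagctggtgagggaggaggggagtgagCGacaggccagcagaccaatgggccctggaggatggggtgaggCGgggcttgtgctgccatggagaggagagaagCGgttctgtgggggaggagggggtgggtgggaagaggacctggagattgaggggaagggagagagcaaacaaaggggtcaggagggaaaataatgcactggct
DNMT1, chr19:10194904-10195203, minus strand: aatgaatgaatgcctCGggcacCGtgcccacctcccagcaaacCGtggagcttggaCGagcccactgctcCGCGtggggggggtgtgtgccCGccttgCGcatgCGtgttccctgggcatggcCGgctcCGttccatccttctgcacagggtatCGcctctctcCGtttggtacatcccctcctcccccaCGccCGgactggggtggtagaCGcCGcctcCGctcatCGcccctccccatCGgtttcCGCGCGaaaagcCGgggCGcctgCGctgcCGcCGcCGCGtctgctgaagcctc
TET1 outermost start, chr10:68560087-68560386, plus strand: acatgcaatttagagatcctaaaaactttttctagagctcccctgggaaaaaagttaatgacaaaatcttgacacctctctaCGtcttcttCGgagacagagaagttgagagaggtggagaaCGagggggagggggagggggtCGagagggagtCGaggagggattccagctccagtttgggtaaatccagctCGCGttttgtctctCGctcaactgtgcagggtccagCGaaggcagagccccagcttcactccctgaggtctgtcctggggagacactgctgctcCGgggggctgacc
TET1 internal start, chr10:68600224-68600523, plus strand: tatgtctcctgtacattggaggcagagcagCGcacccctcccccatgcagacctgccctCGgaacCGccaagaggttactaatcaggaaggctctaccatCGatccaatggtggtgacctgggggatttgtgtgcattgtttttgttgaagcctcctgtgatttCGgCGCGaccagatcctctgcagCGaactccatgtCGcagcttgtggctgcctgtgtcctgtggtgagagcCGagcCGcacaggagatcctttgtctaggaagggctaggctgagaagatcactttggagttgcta
TET2 second start, chr4:105146626-105146925, plus strand: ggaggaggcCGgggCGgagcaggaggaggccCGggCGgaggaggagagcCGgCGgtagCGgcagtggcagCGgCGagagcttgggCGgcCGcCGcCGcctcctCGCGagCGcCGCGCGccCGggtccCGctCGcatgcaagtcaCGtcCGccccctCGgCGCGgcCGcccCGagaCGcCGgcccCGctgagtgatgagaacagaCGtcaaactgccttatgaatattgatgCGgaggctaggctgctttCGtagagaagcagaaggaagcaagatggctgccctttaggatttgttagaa
The DNMT3B window held 3 CpG sites, and 18.2% of all windows held fewer. The DNMT1 window held 30 (77.6% of windows held fewer), the outermost TET1 window 10 (43.6%), the printed internal TET1 window 11 (45.3%) and the second TET2 window 35 (85.9%). The median over all windows was 14. Not printed are the outermost TET2 window with 13 CpG sites (48.3%) and 6 DNMT3A windows with 18 to 46 (55.5% to 97.1%). Also not printed is the other internal TET1 window, with 6 (33.7%). The GC box letters GGGCGG, which include a CpG, were searched on both strands and occurred 5 times, overlaps included, in the second TET2 window and not in the other windows printed. Among the windows not printed they occurred once at the outermost TET2 start, and at 4 of the 6 DNMT3A starts 2 to 4 times each. They occur in 45.0% of all windows. The letters CCAAT, on both strands, occurred once in the DNMT3B window and in 2 places in each internal TET1 window, the unprinted one included. These letters occur in 34.6% of all windows.

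Fewer peaks were called around the 5 genes in H7 than in ARPE-19, while their shares of the lists overlapped. The 5 windows together held 4, 6 and 3 peaks in H7 replicates 1, 2 and 3, and 18, 16 and 23 peaks in ARPE-19 replicates 1, 2 and 3. The libraries of the lines did not overlap, with means of 4.33 ± 1.53 in H7 and 19 ± 3.61 in ARPE-19 (SD, n = 3), a difference of -14.7 peaks for H7 minus ARPE-19 (exact permutation test, two-sided p = 0.1). With 3 libraries against 3, 0.1 is the smallest p that the 20 assignments allow, so no comparison of library values here can pass 0.05. The lists hold 15351, 13707 and 8622 peaks in H7 and 44456, 40110 and 48460 in ARPE-19. Per 10000 peaks of its list, the windows held 2.61, 4.38 and 3.48 peaks in H7 and 4.05, 3.99 and 4.75 in ARPE-19, values that overlap (difference -0.77, exact permutation p = 0.3, n = 3 per line). When the 8622 peaks with the highest -log10 p were taken from every list, the means were 3 peaks in H7 and 1.67 in ARPE-19, which turns the direction (difference 1.33, exact permutation p = 0.3). A lower number in H7 is common across the genome: in 54.1% of 12750 autosomal bins of 200 kb that hold a peak, every H7 library lay below every ARPE-19 library, and in 2.02% every one lay above. By share of the list these were 24.9% and 14.3%.

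**Figure D1:**
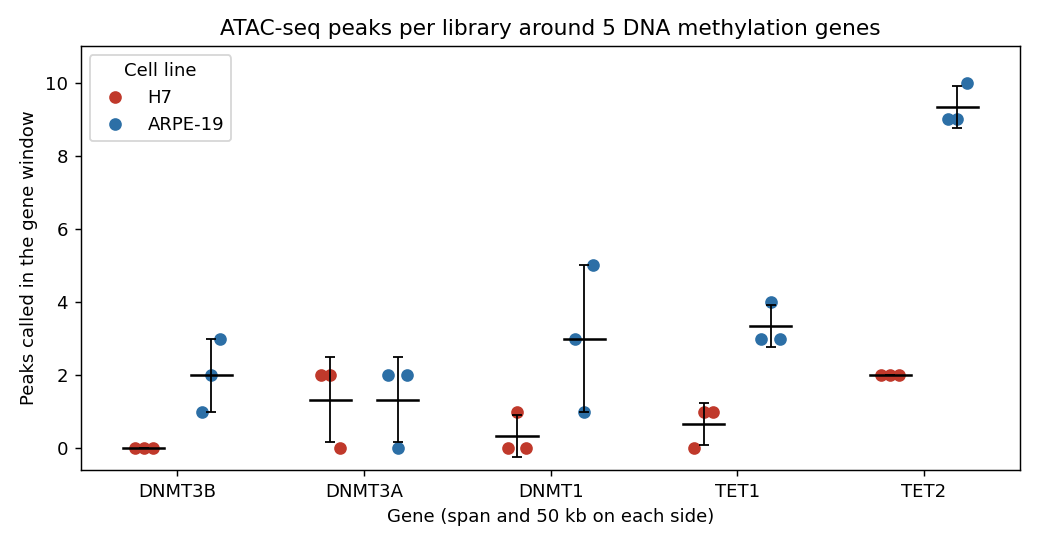
Number of ATAC-seq peaks (vertical axis) in the window of each gene (horizontal axis), 1 point per library, H7 in red and ARPE-19 in blue; bars give the mean and SD of 3 libraries. TET2 stands highest in ARPE-19 with 9 to 10 peaks, DNMT3B has 0 in all 3 H7 libraries, and the lines overlap at DNMT3A and DNMT1.

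By gene, TET2 had the highest mean number of peaks in both lines and DNMT3A had the same mean in both. The TET2 window held 2, 2 and 2 peaks in H7 and 9, 9 and 10 in ARPE-19, and the TET1 window 0, 1 and 1 in H7 and 3, 4 and 3 in ARPE-19. The DNMT3B window held 0, 0 and 0 in H7 and 1, 2 and 3 in ARPE-19. In these 3 windows the lines did not overlap (exact permutation p = 0.1 for each, n = 3 per line), which 54.1% of the bins also show in this direction. With the 8622 strongest peaks of every list this difference was gone at TET2, with means of 1.67 in H7 and 1.67 in ARPE-19, and at DNMT3B, with 0 in both, and it turned at TET1, with 0.333 in H7 and 0 in ARPE-19. The DNMT1 window held 0, 1 and 0 peaks in H7 and 3, 1 and 5 in ARPE-19 (exact permutation p = 0.2), and the DNMT3A window 2, 2 and 0 in H7 and 2, 0 and 2 in ARPE-19 (exact permutation p = 1), so that both overlap. Per 100 kb of window, the mean number of TET2 peaks was 0.855 in H7 and 3.99 in ARPE-19, densities reached by 15.0% of the bins in H7 and 6% in ARPE-19. DNMT3A was at 0.636 per 100 kb in both lines, a density reached by 32.7% of the bins in H7 and 79.8% in ARPE-19. The order of the genes in ARPE-19 was TET2 (mean 9.33 ± 0.58 peaks), TET1 (3.33 ± 0.58), DNMT1 (3 ± 2), DNMT3B (2 ± 1) and DNMT3A (1.33 ± 1.15; SD, n = 3 each), in which neighbours below TET2 lie within their spread. In H7 it was TET2 (2 ± 0), DNMT3A (1.33 ± 1.15), TET1 (0.667 ± 0.577), DNMT1 (0.333 ± 0.577) and DNMT3B (0 in every library). All neighbours in this order overlap, and TET2 and DNMT3A were equal at 2 peaks in H7 replicates 1 and 2. The windows differ in length, from 147 kb at DNMT3B to 234 kb at TET1 and TET2.

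Of the 33 merged regions, 10 (30.3%) had a peak in H7 and 28 (84.8%) in ARPE-19, where 30.8% and 77.8% of all regions of the genome did. None of the 33 was H7-only, meaning called throughout H7 and nowhere in ARPE-19, a class that holds 1.82% of all regions. The opposite class, ARPE-19-only, held 6 of the 33 (18.2%), all in the TET2 window, where 26.0% of all regions belong to it. Without ARPE-19 replicate 2 this count was 10 of 31 (32.3%, against 35.0% of all regions in that setting). Peaks of both lines were found in 5 regions (15.2%), against 8.51% of all regions: 2 at TET2 and 1 each at DNMT3A, DNMT1 and TET1. Without H7 replicate 2 this count was 3 of 31 (9.68%, against 7.34% of all regions in that setting). Another 5 regions were called in 1 H7 library alone (15.2%, against 17.1% of all regions), 9 in 1 ARPE-19 library alone (27.3%, against 29.3%) and 8 in 2 ARPE-19 libraries alone (24.2%, against 13.9%). Single calls thus made up 14 of the 33 (42.4%), against 46.4% of all regions. A single call shows no difference between the lines.

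**Figure D2:**
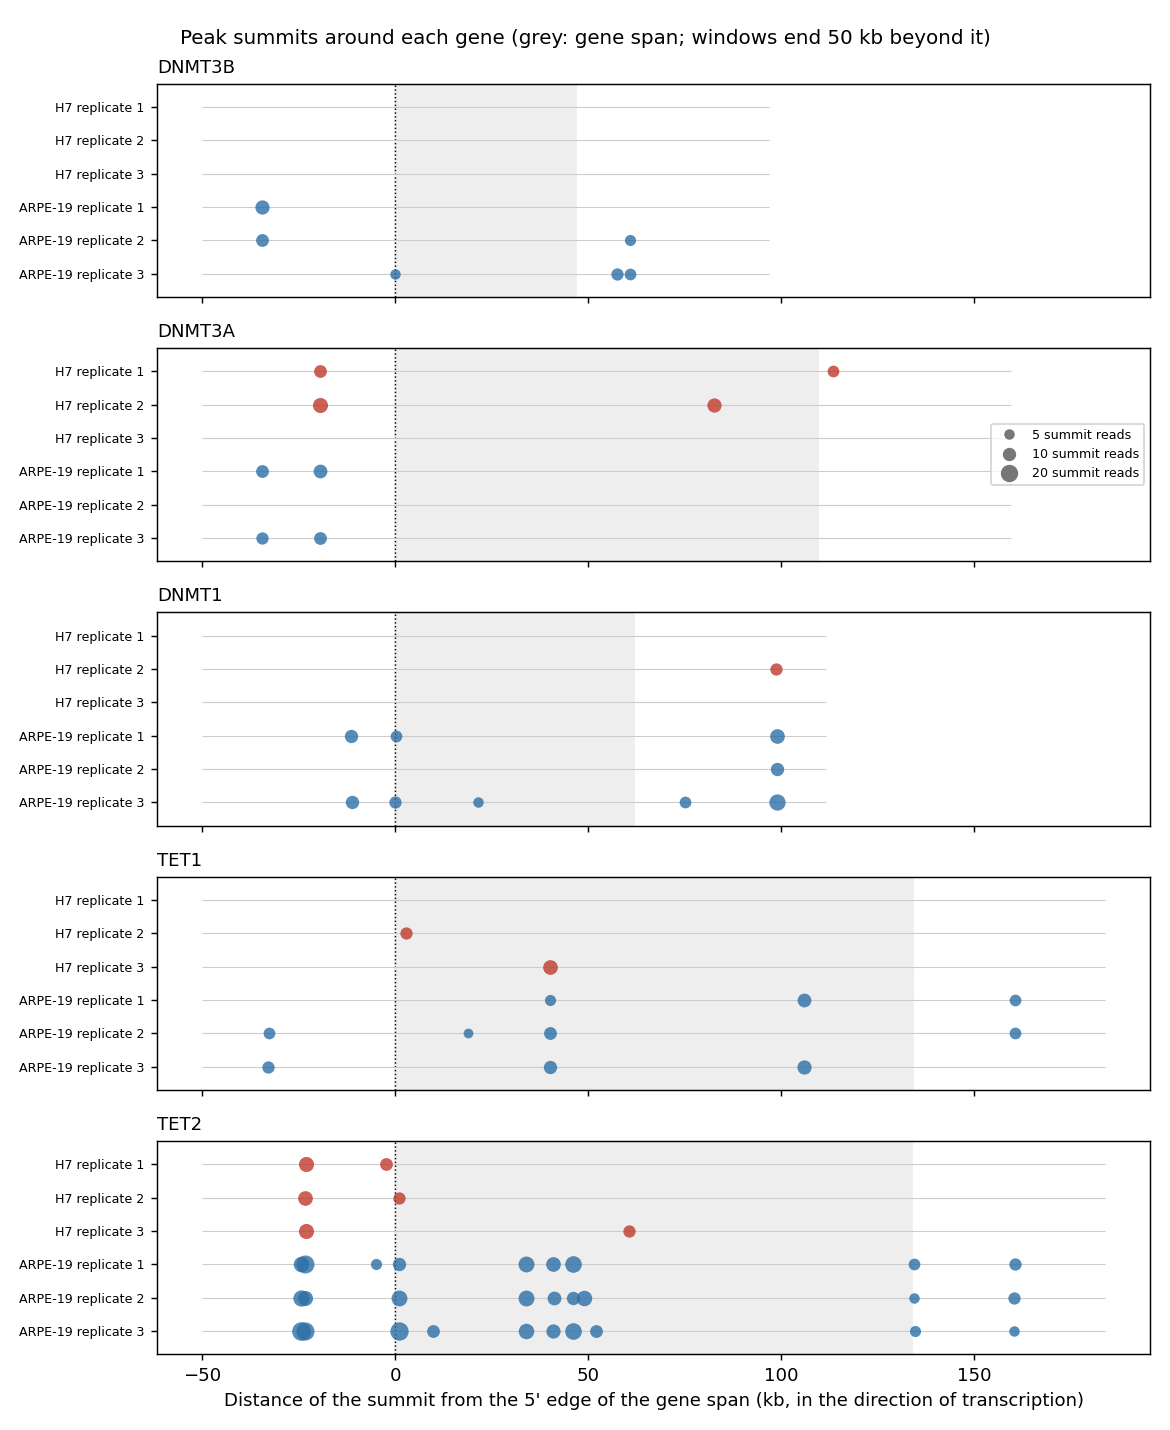
Position of each peak summit relative to the 5′ edge of the gene span (horizontal axis, kb in the direction of transcription), with 1 row per library, H7 in red above ARPE-19 in blue, and the area of a point growing with its summit reads. Grey marks the gene span. Peaks at the 5′ edge were called at DNMT3B, DNMT1 and TET2. No H7 peak was called at the ARPE-19 peaks 33.9 to 52.1 kb inside TET2, some of which are calls of a single library.

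A peak at the start of the gene was called in 1 of 15 pairs of gene and library in H7 and in 6 of 15 in ARPE-19. These counts take peaks within 1 kb of the 5′ edge of the span, the H7 count was 0 without H7 replicate 2, and the ARPE-19 count was 3 without ARPE-19 replicate 3. With the 8622 strongest peaks of every list the counts were 1 in H7 and 1 in ARPE-19. The share over all gene starts was not computed, since hg19 starts of other genes were not used here, so these counts cannot be read against the longer ARPE-19 lists. By gene the number of libraries was 0 in H7 and 1 in ARPE-19 at DNMT3B, 0 and 2 at DNMT1, 1 and 3 at TET2, and 0 and 0 at DNMT3A and TET1. The smallest p of Fisher's exact test was 0.4, at DNMT1 and TET2, and the design allows none below 0.1. Peak callers report only regions past a threshold, so a start without a peak was not called at this depth and was not shown to be closed.

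DNMT3B, the de novo enzyme known for its high level in stem cells, was the one gene with no H7 peak in its window. It spans chr20:31350191-31397162 on hg19, on the plus strand. The H7 peak nearest to its 5′ edge lay 806, 806 and 277 kb away in replicates 1, 2 and 3. The ARPE-19 peak nearest to it lay 34.5 and 34.4 kb away in replicates 1 and 2, and in replicate 3 a peak covered the edge. Of the 200 kb bins that hold a peak in at least 1 library, 19.3% had 0 peaks in all 3 H7 lists. In all 3 ARPE-19 lists 5.95% of them had 0. The DNMT3B window is shorter than these bins, at 147 kb. The peak on the edge, chr20:31350037-31350217, had 5 summit reads over a local background of 0.714 and stood at percentile 1.39 of its list by -log10 q, so it is among the weakest calls. Summit reads and backgrounds were recovered from the deposited fold and p of each peak. The strongest DNMT3B region, chr20:31315557-31315838, lay 34.5 kb upstream and had 12 and 9 summit reads in ARPE-19 replicates 1 and 2. A further pair of regions lay downstream, 57.4 and 60.9 kb from the 5′ edge and past the gene's end, with 6 to 8 summit reads in 1 and 2 ARPE-19 libraries. RefSeq places COMMD7 before DNMT3B and MAPRE1 after it, and peaks in the flanks may lie at these genes.

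DNMT3A, the second de novo enzyme, spans chr2:25455830-25565459 on the minus strand and held 4 peaks in H7 and 4 in ARPE-19 over the 3 libraries of each. Its leading region, chr2:25584920-25585233, lay 19.6 kb upstream of the 5′ edge and was called in H7 replicates 1 and 2 and in ARPE-19 replicates 1 and 3. It had 9 and 14 summit reads in these H7 libraries and 11 and 9 in these ARPE-19 libraries. As multiples of the genome-wide background, the level expected by the peak caller away from peaks, this was 13.8 and 23.6 in H7 and 22.8 and 21.2 in ARPE-19, so that the lines overlap. The call in H7 replicate 2 stood at percentile 82.9 of its list by -log10 q and the one in replicate 1 at percentile 55.3. ARPE-19 replicate 2 and H7 replicate 3 had no peak in the DNMT3A window. H7 had the only peak inside the span, chr2:25482657-25482847 in replicate 2, with 12 summit reads and a -log10 q of 5.01. It lay from 82612 to 82802 bases inside the 5′ edge. DNMT3A2, a shorter form from an internal start, is the main form in embryonic stem cells of the mouse. RefSeq on GRCh38.p14 gives 5 further starts of DNMT3A inside its outermost one, at 107 and 665 bases and at 90275, 90327 and 90459 bases. Peak and starts are on different builds, and their distances stand side by side only. The other H7 peak, with 7 summit reads in replicate 1, lay past the gene's 3′ end, and the other ARPE-19 region, 34.5 kb upstream, had 9 and 8 summit reads in replicates 1 and 3. The RefSeq neighbours are POMC and DTNB.

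DNMT1, the maintenance enzyme, spans chr19:10244022-10305811 on the minus strand, and its start was called in 2 libraries of ARPE-19 and none of H7. The start region, chr19:10305414-10305935, had 7 and 8 summit reads in ARPE-19 replicates 1 and 3, or 14.5 and 18.8 times the genome-wide background. It was not called in ARPE-19 replicate 2 or in any H7 library. The peaks of the pair of libraries overlapped at their ends and stood at percentiles 17.6 and 25.8 of their lists, below the middle of each. The most often called region of the window, chr19:10206701-10207081, lay beyond the 3′ end, 98.9 kb from the start. It had 8 summit reads in H7 replicate 2 and 13, 10 and 17 in ARPE-19 replicates 1, 2 and 3. Over the genome-wide background this was 13.5 in the H7 library and 26.9, 21.8 and 40.0 in the ARPE-19 libraries, so the H7 value is the lowest. A region 11.3 kb upstream had 10 and 10 summit reads in ARPE-19 replicates 1 and 3, and 2 single calls of replicate 3 had 7 and 5. RefSeq places EIF3G past the end of DNMT1 and S1PR2 before its start.

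TET1, the dioxygenase most associated with stem cells, spans chr10:70320117-70454239 on the plus strand and had no peak within 1 kb of its 5′ edge in any of the 6 libraries. Its most often called region lay inside the gene, chr10:70359850-70360434, in 1 H7 and 3 ARPE-19 libraries. It had 13 summit reads in H7 replicate 3 and 6, 9 and 10 in ARPE-19 replicates 1, 2 and 3. Over the genome-wide background this was 20.5 in the H7 library and 12.4, 19.7 and 23.5 in the ARPE-19 libraries, so the H7 value lies within the ARPE-19 range. The peaks together covered 39733 to 40317 bases inside the 5′ edge of the hg19 span. RefSeq gives internal TET1 starts at 39931 and 40137 bases inside its outermost start on GRCh38.p14, and the second of these is the internal window printed above. A shorter TET1 protein without the CXXC domain is known from such an internal start. Whether the hg19 edge is the same base as the outermost GRCh38 start was not tested, so these distances stand side by side only.

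The H7 peak closest to the TET1 start, chr10:70322856-70323020, lay 2.81 kb inside the 5′ edge, in replicate 2 with 8 summit reads and at percentile 12.9 of its list. H7 replicate 1 had its nearest peak 153 kb away. ARPE-19 peaks came closest at 40.1, 18.8 and 32.7 kb in replicates 1, 2 and 3. Deeper in the gene, a region 106 kb inside, chr10:70425893-70426506, had 11 and 12 summit reads in ARPE-19 replicates 1 and 3 and none called in H7. A call 19.0 kb inside had 4 summit reads in ARPE-19 replicate 2, which is the fewest with which a peak was called in these windows. The flanks held ARPE-19 regions 32.9 kb upstream (8 and 7 reads in replicates 3 and 2) and past the end of the gene (7 reads in replicates 1 and 2). SLC25A16 and CCAR1 are the RefSeq neighbours.

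TET2, the dioxygenase without a CXXC domain, spans chr4:106067032-106200960 on the plus strand and carried 14 of the 33 regions. Its start region, chr4:106067621-106068277, was called in 1 H7 and 3 ARPE-19 libraries. It had 8 summit reads in H7 replicate 2 and 10, 16 and 23 in ARPE-19 replicates 1, 2 and 3. Over the genome-wide background this was 13.5 in the H7 library and 20.7, 34.9 and 54.1 in the ARPE-19 libraries, so the single H7 value is below all 3. On this scale the mean log2 ratio was -1.33, and it was -0.95 without scaling and -0.70 over the local background. It rests on 1 H7 value, so no test was made. Where H7 had no call, its value is not known. The peaks covered 589 to 1245 bases inside the 5′ edge of the hg19 span. RefSeq on GRCh38.p14 gives a second TET2 start 1001 bases inside the outermost one, whose CpG-rich window is printed above. A window of 500 bases around the edge therefore misses this region.

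Upstream of TET2 lay the one region of the 33 that was called in all 6 libraries, as 1.82% of all regions were, chr4:106043448-106043849, 23.3 kb before the 5′ edge. It had 14, 13 and 14 summit reads in H7 and 22, 14 and 22 in ARPE-19. Over the genome-wide background this was 21.4, 22.0 and 22.1 in H7 and 45.5, 30.6 and 51.8 in ARPE-19, and the lines did not overlap (log2 difference -0.93, SE 0.23, exact permutation p = 0.1, n = 3 per line). Of the 1538 nuclear regions called in all 6 libraries, 68.4% had every H7 value below every ARPE-19 value and 1.04% had every one above, and their median difference was -0.89. On this scale the TET2 region was near the middle, with 52.9% of these regions at or above its difference. Without scaling to the background the difference was -0.47 (exact permutation p = 0.3), with 52.9% at or above it. By the authors' fold over the local background it was -0.09 (exact permutation p = 0.5) against a median of -0.47, with 18.5% at or above it, so on that scale it was not near the middle. In H7 these were strong calls, at percentiles 86.6, 91.2 and 87.1 of their lists.

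**Figure D3:**
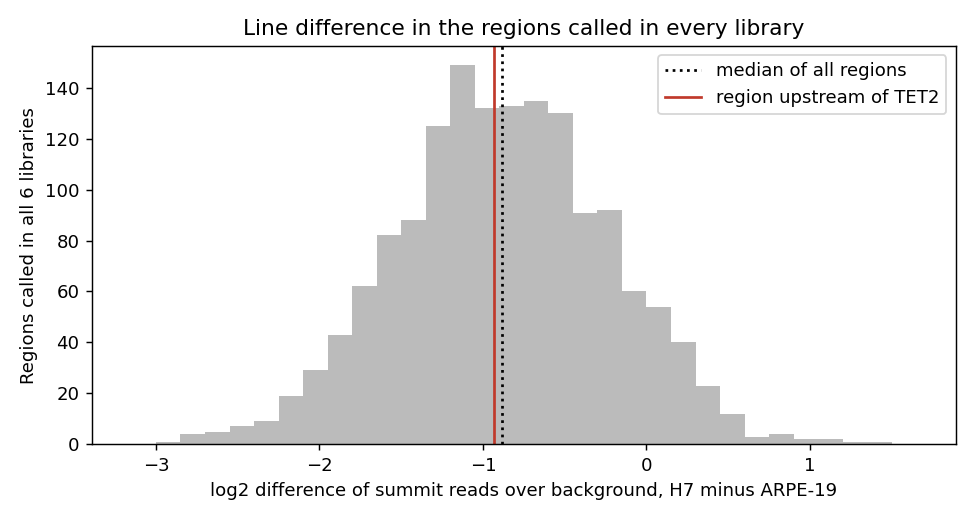
Distribution of the log2 difference in summit reads over the genome-wide background, H7 minus ARPE-19 (horizontal axis), over the 1538 nuclear regions called in all 6 libraries (vertical axis, number of regions). The region upstream of TET2, at -0.93, lies beside the median of -0.89.

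About 1 kb further upstream lay an ARPE-19-only region, chr4:106042442-106042864, with 15, 17 and 24 summit reads in ARPE-19 replicates 1, 2 and 3 and no H7 peak. It reached 31.1, 37.1 and 56.5 times the genome-wide background, so the neighbouring summits, 24.4 and 23.3 kb from the edge, were of similar strength in ARPE-19 while 1 of them was called in H7. The local background of this pair in ARPE-19 was raised, at 2.17 to 4.08 times the genome-wide one. CXXC4 is the RefSeq neighbour before TET2 and PPA2 the one after it, and the noncoding TET2-AS1 overlaps the gene.

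Inside TET2, 3 ARPE-19-only regions lay in a row 33.9, 40.9 and 46.2 kb from the 5′ edge. The first, chr4:106100773-106101133, had 16, 16 and 15 summit reads in ARPE-19 replicates 1, 2 and 3, the second, chr4:106107833-106108255, had 13, 11 and 12, and the third, chr4:106112939-106113509, had 18, 10 and 18. No H7 peak was called at any of them. Single ARPE-19 calls lay nearby, at 49.0 kb with 15 reads in replicate 2 and at 52.1 kb with 9 reads in replicate 3. The H7 call inside the gene besides the start was at 60.5 kb, with 8 reads in replicate 3. Past the 3′ end, weaker ARPE-19-only regions at 135 and 161 kb from the start had 5 to 7 and 5 to 8 summit reads. The remaining TET2 calls were single ones near the start, 1 in H7 replicate 1, 2.52 kb upstream with 9 reads, and 2 in ARPE-19, 5.02 kb upstream with 6 reads and 9.82 kb inside with 9 reads.

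**Figure D4:**
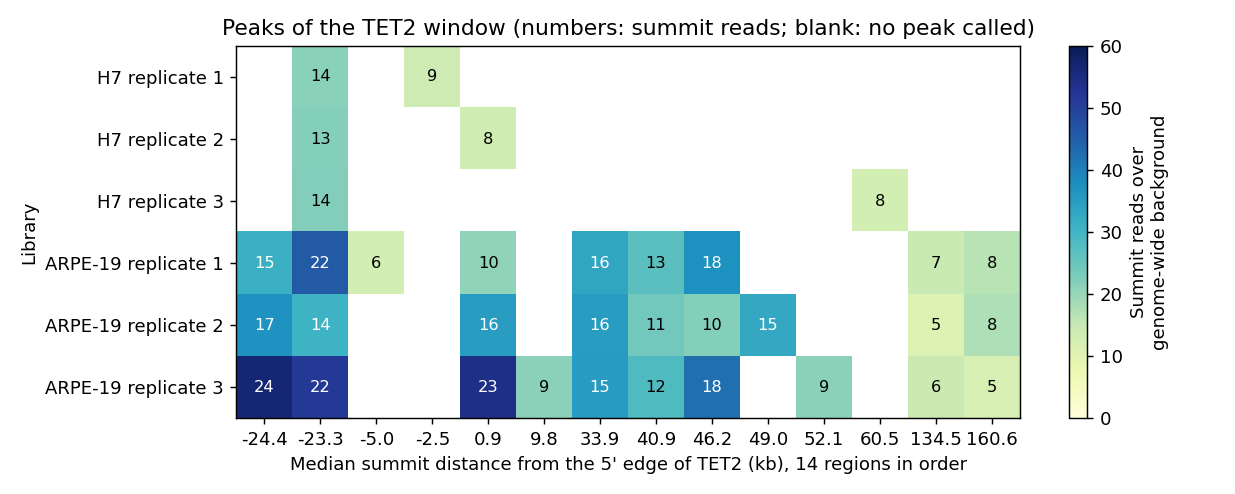
The 14 regions of the TET2 window in order along the gene (horizontal axis, median summit distance from the 5′ edge in kb) in each library (rows), coloured by summit reads over the genome-wide background and numbered with the summit reads. Blank fields had no peak called. The region at -23.3 kb is filled in all 6 rows, and the H7 rows are empty from 9.8 to 52.1 kb.

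The peaks around the 5 genes lay near the middle of their lists in strength, and a little below it in ARPE-19. The 13 H7 peaks had 7 to 14 summit reads with a median of 9, and the 57 ARPE-19 peaks 4 to 24 with a median of 10. Over the genome-wide background the medians were 13.8 in H7 and 21.2 in ARPE-19, while the medians over all peaks of a list were 13.8 to 15.8 in H7 and 21.8 to 25.9 in ARPE-19. By -log10 q the members stood at a median percentile of 55.3 in the H7 lists and 40.8 in the ARPE-19 lists. The peaks were 164 to 404 bases wide in H7 and 144 to 601 in ARPE-19, with medians of 191 and 296. The median widths of the whole lists were 224 to 229 in H7 and 261 to 275 in ARPE-19.

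**Figure D5:**
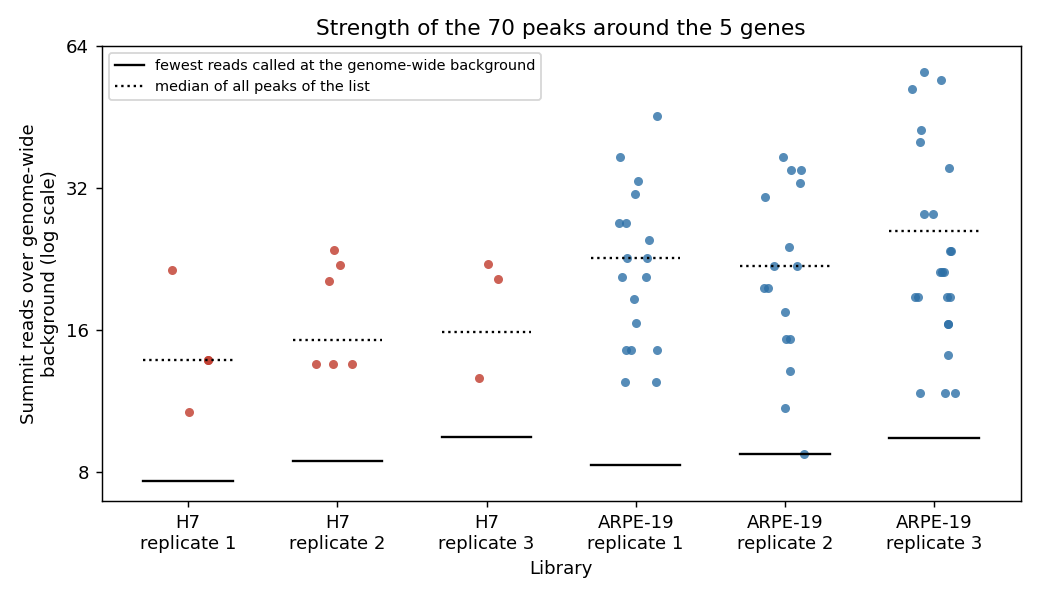
Summit reads over the genome-wide background (vertical axis, log scale) of each of the 70 peaks by library (horizontal axis), H7 in red and ARPE-19 in blue. Solid lines mark the fewest reads of a peak called at the genome-wide background and dotted lines the median of all peaks of that list. H7 members lie between 10.7 and 23.6, while ARPE-19 members reach 56.5.

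No H7 peak was called in 23 of the 33 regions, while 10 (30.3%) had one, against 30.8% of all regions. The genome-wide background was 0.653, 0.592 and 0.633 reads in H7 and 0.483, 0.458 and 0.425 in ARPE-19. At that background the weakest calls had 5, 5 and 6 summit reads in H7 and 4 in each ARPE-19 library. Depth in nuclear reads alone was not measured, and whether depth bears on the missing H7 calls was not tested. In the regions called in all 6 libraries the median H7 multiple of the background was 0.541 of that in ARPE-19. Library quality and the cells cannot be told apart in this value, as each library is of 1 line.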

How the data were processed

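ATAC-seq peak lists of 3 H7 and 3 ARPE-19 libraries were used; the 6 samples of 4C were not analysed here. Peaks were called per library with MACS2, and bedtools was used, on hg19, per the submitters' processing notes, without versions. For the aligner, duplicates and any transposase shift the status is: not given in the sources used here; a missing shift would move summits by a few bases, and duplicates would raise summit reads. The deposited lists hold a score, a fold (a ratio of summit reads to the local background) and -log10 values of p and q, all the authors' own values within a library. The deposited start, end and summit give positions, printed 1-based.

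Summit reads were recovered as the whole number that, with a background, gives the deposited fold (reads plus 1 over background plus 1) and the Poisson -log10 p. All 70 peaks met it within 0.001. The most frequent background of a list gives relative depth only, since read totals were not given, and counting error limits peaks of few reads. Gene spans on hg19 came with the choice of genes; strand, neighbours and promoter windows came from RefSeq on GRCh38.p14, and no coordinates were converted. Other genes of the pathway, cell type markers and genes of like pattern were planned only for an hg19 annotation and were not run.

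The members and lists were chosen with earlier results of these data known. Regions to be named were those at the 5′ ends, those in at least 2 H7 libraries and the 3 strongest of those called in 3 of 3 ARPE-19 libraries per gene; the remaining ones were described in addition after their values were seen, as was the comparison with the regions called in all 6 libraries. Libraries were compared by exact two-sided permutation tests on the difference of means and by Fisher's exact test. Alternatives tried were -log10 q from 5 upwards, equal list lengths, one -log10 p threshold (4.31), flanks of 0, 10 and 100 kb, other windows at the start, 50% coverage of a region, looser classes, other scalings, pairing by replicate number and leaving out each library. The steps were tested on simulated data. Tools were scipy 1.17.1, pandas 2.3.3, numpy 2.4.6 and, for plots, matplotlib 3.10.9, under Python 3.11.15.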

Additional observations from a re-analysis of the deposited data

How the results depend on the processing

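The number of peaks in the 5 windows was lower in H7 under every alternative except equal list lengths, where the difference (H7 minus ARPE-19) was 1.33 peaks, 1.55 peaks per 10000 of the list and 155 covered bases. Equal list lengths also turned the differences at the TET1 window and span (0.33 and 0.33 peaks) and in the DNMT3A flanks (0.67), and left no difference at TET2 (0, from 1.67 in H7 and 1.67 in ARPE-19; -7.33 with the full lists), DNMT3B (0; -2) and DNMT1 (0; -2.67); the setting by its construction shortens ARPE-19 lists most. The difference in peaks per 10000 of the list also turned with -log10 q from 5 upwards, to 0.94 (4.96 in H7 and 4.02 in ARPE-19; p = 0.5 by the exact permutation test); the cause was not tested. Calls at the starts, 1 in H7 and 6 in ARPE-19, were 0 and 3 with -log10 q from 5 upwards, 1 and 1 with equal list lengths, 0 and 3 within 500 bases and 2 and 6 within 2500 bases. ARPE-19-only regions, 6 (18.2% against 26.0% of all regions), were 0 with equal list lengths (14.7% of all regions), 3 with no flank (18.8% against 26.0%) and 14 by the looser class (42.4% against 39.9%, now above the share of all regions). Regions of both lines, 5 (15.2% against 8.51% of all regions), were 3 with -log10 q from 5 upwards (17.6% against 6.74%). They were 2 with equal list lengths (25% against 7.92%), 2 with no flank (12.5% against 8.51%) and 2 with flanks of 10 kb (10% against 8.51%). H7-only regions were 0 in each of these settings.

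Leaving out each library in turn gave differences of -16.2 to -12.7 peaks, -1.22 to -0.33 per 10000 and -5293 to -4036 covered bases, 6 to 10 ARPE-19-only regions, 3 to 5 of both lines and 0 to 1 H7 and 3 to 6 ARPE-19 calls at the starts; in the DNMT3A flanks the difference ranged from -1 to 0.17. With each library left out, the ARPE-19-only share stayed below that of all regions and the share of both lines stayed above it. Replicate numbers did not pair the libraries: deviations of libraries of equal number correlated at 0.01, -0.05 and 0.09. With the replicate number as a block the difference stayed -14.7 peaks with p = 0.25 (exact sign-flip permutation), the smallest that 3 pairs allow. At the genome-wide background the weakest calls had 4 to 6 summit reads, so weaker openings would not be listed.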
